A study of Rattus norvegicus with 10 samples.

Results

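SOX9 sites at H3K4me3 that had no SOX6 peak were described in RCS cells, a cell line derived from a rat chondrosarcoma that keeps features of cartilage cells. They are the SOX9 peaks with at least 1 bp in common with an H3K4me3 interval and no bp in common with a SOX6 peak. The sites were thus chosen by the measured overlaps of 3 peak lists, for SOX9, SOX6 and H3K4me3, and the rule gave 2231 of the 14782 SOX9 peaks. They are called SOX9-only H3K4me3 sites here, and the H3K4me3 interval with which a site had most bp in common is called its host. The overlaps with SOX6 and H3K4me3 are therefore a definition and not a result.

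The series holds ChIP-seq, in which DNA bound by an antibody's target is enriched and sequenced, with 1 library for each of 6 antibodies, against the factors SOX9 and SOX6 and against the histone marks H3K4me1, H3K4me3, H3K27ac and H3K9me3. The other 4 of the 10 samples are input DNA without an antibody, with separate libraries for SOX9, for SOX6 and for H3K27ac and a common one for the 3 methylation marks. All 10 samples come from RCS cells, and the labels name no treatment, time or genotype. With 1 library per antibody and 1 cell line there is no replicate error. The intervals given are Wilson 95% intervals for shares, Newcombe 95% intervals for differences and exact Poisson intervals for rates. For ratios of rates, exact binomial 95% intervals of the split of sites between the classes were turned into odds and scaled by length. All of them cover counting error only. Neighbouring peaks are not independent, so the intervals are narrower than the spread another library would give.

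SOX9 is a transcription factor that cartilage cells need to form and to keep their identity. SOX6 is a SOX protein without a transactivation domain of its own that acts with SOX9 at cartilage enhancers. H3K4me3 marks the nucleosomes around active and poised promoters. H3K27ac marks active promoters and active enhancers. H3K4me1 is spread over enhancers and, at promoters, usually lies on the flanks of H3K4me3, while H3K9me3 marks heterochromatin. No gene was assigned to any site, because gene positions on rn5, the rat genome build of the files, were not used here. For the same reason the identity of the cells was not checked against cartilage genes, and a host is not called a promoter.

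The peaks carry the authors' score, on a scale that no source used here states, and scores were compared only within a list. All 6 lists start at a score near 50. A site without a SOX6 peak is therefore a site where none was listed at that score, and the depth of the SOX6 library was not used here. In the H3K4me3 list a score of 3100 was the most frequent value. H3K4me3 intervals at or above 3100 form the highest class here, those from the list's median of 1673.84 to below 3100 the upper class, and those below the median the lower class. The input libraries held from 36873004 to 131858579 reads, of which 53.4% to 53.5% aligned.

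As peaks, the SOX9-only H3K4me3 sites were mostly low in the SOX9 list. Their median score was 70.1, with quartiles of 57.15 and 97.7, and the highest score was 633.47. Their median width was 546 bp, with quartiles of 394 bp and 785 bp. The 3645 SOX9 peaks that met both H3K4me3 and SOX6, called shared sites here, had a median score of 151.18 and a median width of 781 bp. The 4222 SOX9 peaks with neither SOX6 nor H3K4me3 were lower still, with a median score of 60.88 and a median width of 361 bp. A low score was thus not particular to the SOX9-only H3K4me3 sites among SOX9 peaks without SOX6. Over quintiles of the whole SOX9 list, from lowest to highest score, the SOX9-only H3K4me3 sites were divided as 26.6%, 29.5%, 26.8%, 13.9% and 3.27%. The corresponding shares of the shared sites were 7.43%, 13.03%, 19.1%, 24.99% and 35.4%, so most of them were in the upper quintiles. SOX9-only H3K4me3 sites and shared sites were separated by overlap with SOX6, on which the width of a SOX9 peak bears. These values are a description only. Raising the SOX9 threshold to the list's median score left 653 of the 2231 sites.

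Few sites lay close to the H3K4me3 threshold of the rule, and more lay close to the SOX6 threshold. Of the 2231, 10 had 1 to 50 bp in common with H3K4me3, with a median score of 59.89, and 16 had 51 to 100 bp. Just outside, 3 SOX9 peaks without SOX6 and without H3K4me3 lay within 50 bp of an H3K4me3 interval, and 17 lay 51 to 100 bp away. On the SOX6 side, 43 sites lay within 50 bp of a SOX6 peak without touching it, and their median score was 68.68. Just across, 12 shared sites had 1 to 50 bp in common with SOX6, with a median score of 74.43.

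The sites lay well inside the H3K4me3 intervals. The SOX9 centre was inside the host at 2158 sites, or 96.7% (95.9% to 97.4%), and the whole SOX9 peak was inside at 1856, or 83.2% (81.6% to 84.7%). The median distance from the SOX9 centre to the nearer host edge was 622 bp, with quartiles of 349.5 bp and 993.5 bp. Position was measured as the distance of the SOX9 centre from the host's midpoint, as a share of the distance from midpoint to edge, so that 0 is the midpoint and 1 the edge. The median position was 0.34, with quartiles of 0.16 and 0.55. Centres in the middle 50% of the host length numbered 1549, or 69.4% (67.5% to 71.3%), where an even placement over the host would put 50%. The outer 50% held 27.3%, and 73 centres, or 3.27%, lay beyond the edge.

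In bins of 0.1 from midpoint to edge, the share was 16.1% in the innermost and 2.06% in the outermost. The first 3 bins held 16.1%, 14.1% and 14.7%, whose intervals overlap, so the decline was seen only outside them. Shared sites followed the same general course from 14.9% to 3.48%, but 8.20% of them had their centre beyond the edge. Fewer shared sites were wholly inside their host, 58.6% against 83.2%, and the width of the SOX9 peak was a median of 53.1% of the host's width at shared sites against 28.2% at SOX9-only H3K4me3 sites.

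**Figure D1:**
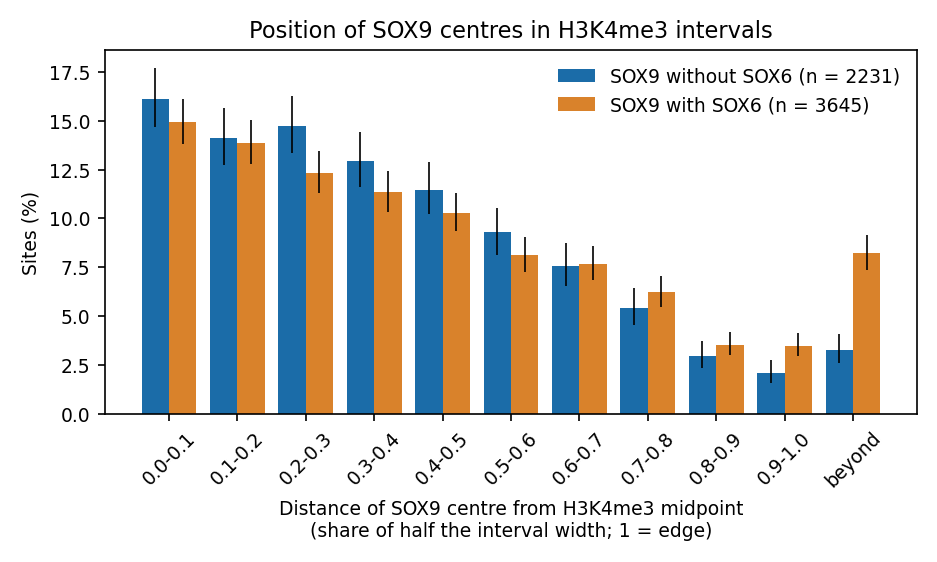
Position of SOX9 peak centres in their H3K4me3 host, as the distance from the host's midpoint divided by the distance from midpoint to edge (x axis), against the share of sites in percent (y axis). Bars are the 2231 SOX9-only H3K4me3 sites and the 3645 shared sites, with Wilson 95% intervals. The share is lower further out in both, and 3.27% against 8.20% lie beyond the edge.

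A peak that is wide for its host has its centre near the midpoint by geometry alone, so position was also read in narrow peaks. Among the 977 sites with a SOX9 peak narrower than 25% of the host, the middle 50% held 616, or 63.1% (59.98% to 66.0%). Among shared sites of the same kind it held 52.3% (48.8% to 55.7%). The difference was 10.8 points (6.15 to 15.4), against 6.66 points (4.17 to 9.11) over all sites. The difference was not seen at every host width. It was 6.46 points (0.396 to 12.3) in hosts under 1 kb. It was 1.89 points (-2.42 to 6.08) in hosts of 1 to 2 kb and 2.37 points (-2.44 to 7.20) in hosts of 2 to 3 kb, and both intervals include 0. In hosts of 3 to 5 kb it was 9.91 points (3.78 to 15.9), and in those of 5 kb or more 9.27 points (-2.02 to 20.2). Within quintiles of SOX9 score, from lowest to highest, it was 4.55, 4.26, 7.35, -2.41 and -0.657 points. The interval includes 0 in every quintile except the middle one, with 2.43 to 12.2. In the lowest and the second, with -2.21 to 11.5 and -1.21 to 9.77, it also includes the 6.66 points over all sites. The same holds for the highest, with -12.4 to 10.5. These quintiles therefore do not settle whether the difference in position remained at matched SOX9 score. In the fourth the interval, -8.69 to 3.66, lies below 6.66 points. By class, it was 9.15 points (5.62 to 12.7) in the highest class and 0.224 points (-3.98 to 4.34) in the lower class.

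The position also varied with the host among the SOX9-only H3K4me3 sites themselves. The middle 50% held 210 of 350 sites, or 60%, in hosts under 1 kb, 71.6% at 1 to 2 kb, 74.5% at 2 to 3 kb, 69.3% at 3 to 5 kb and 55.5% (46.1% to 64.4%) at 5 kb or more. The widest and the narrowest hosts thus had the lowest shares of central sites. In the narrowest hosts, 88.0% (84.2% to 91.0%) of SOX9 centres were inside, against 97.6% to 99.3% in the 4 wider classes. By score class of the host, the middle 50% held 72.8% in the highest, 73.6% in the upper and 61.8% in the lower class.

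Where a host had another H3K4me3 interval within 1000 bp, the SOX9 centre was not clearly turned to it. This held for 255 sites, or 11.4%. Of the 245 with such a neighbour on 1 side, 134 centres, or 54.7% (48.4% to 60.8%), lay on the nearer side of the host's midpoint, and the interval includes 50%.

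The sites fell in 2149 different H3K4me3 intervals out of 23116. Of these hosts, 2073 held 1 site, 71 held 2, 4 held 3 and 1 held 4. A shared site lay in 204 of the hosts as well, and these 204 held 218 of the SOX9-only H3K4me3 sites. Only 5 sites met 2 H3K4me3 intervals. The sites are therefore spread thinly, close to 1 per interval.

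The hosts were wide and high in the H3K4me3 list. Counted by site, the median host width was 2145 bp, with quartiles of 1318 bp and 2968.5 bp, against 1509 bp over all H3K4me3 intervals and 1535 bp for hosts of shared sites. Hosts of the highest class held 1422 sites, or 63.7% (61.7% to 65.7%), while that class makes up 42.5% of all H3K4me3 intervals. The upper class held 5.42% and the lower class 30.8%. For shared sites these shares were 34.4%, 6.09% and 59.5%, so most shared sites lay in hosts of the lower class.

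A longer interval offers a SOX9 peak more room, so the classes were also weighed by their length. Highest-class intervals cover 64.2% of the H3K4me3 length, the upper class 7.36% and the lower class 28.4%. The 63.7% of SOX9-only H3K4me3 sites in the highest class is close to its share of length and is not read as a preference for that class. The sites numbered 55.8 per Mb of H3K4me3 (53.0 to 58.8) in the highest class, 41.5 (34.4 to 49.6) in the upper class and 61.1 (56.6 to 65.8) in the lower class. The ratio of the highest to the lower class was 0.914 (0.834 to 1.003).

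Shared sites were spread over the classes in another way. They numbered 49.2 per Mb in the highest class and 192.5 per Mb in the lower class, a ratio of 0.256 (0.238 to 0.274). The intervals of the 2 ratios do not overlap. Both ratios depended on the SOX9 score. Among SOX9 peaks above the list's median score the ratio for SOX9-only H3K4me3 sites was 0.577 (0.492 to 0.679), and that for shared sites was 0.189 (0.173 to 0.206).

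Over widths the density was again flatter for SOX9-only H3K4me3 sites than for shared sites. It was 70.7 per Mb (63.5 to 78.6) in hosts under 1 kb, 53.2 at 1 to 2 kb, 52.6 at 2 to 3 kb, 56.9 at 3 to 5 kb and 60.7 (49.8 to 73.1) at 5 kb or more. The 4 wider classes have overlapping intervals, and the narrowest class lies above the next 3. From narrowest to widest, the classes held 15.7%, 29.5%, 30.4%, 19.4% and 4.93% of the sites. They made up 12.5%, 31.2%, 32.5%, 19.2% and 4.57% of the H3K4me3 length. The greater median host width is therefore not read as a preference for wide intervals. Shared sites had 199.7 per Mb under 1 kb, 47.6 per Mb at 2 to 3 kb and 130.1 per Mb at 5 kb or more. Counted by interval and not by length, 4.91% of H3K4me3 intervals under 1 kb and 31.2% (26.1% to 36.8%) of those of 5 kb or more held a SOX9-only H3K4me3 site.

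**Figure D2:**
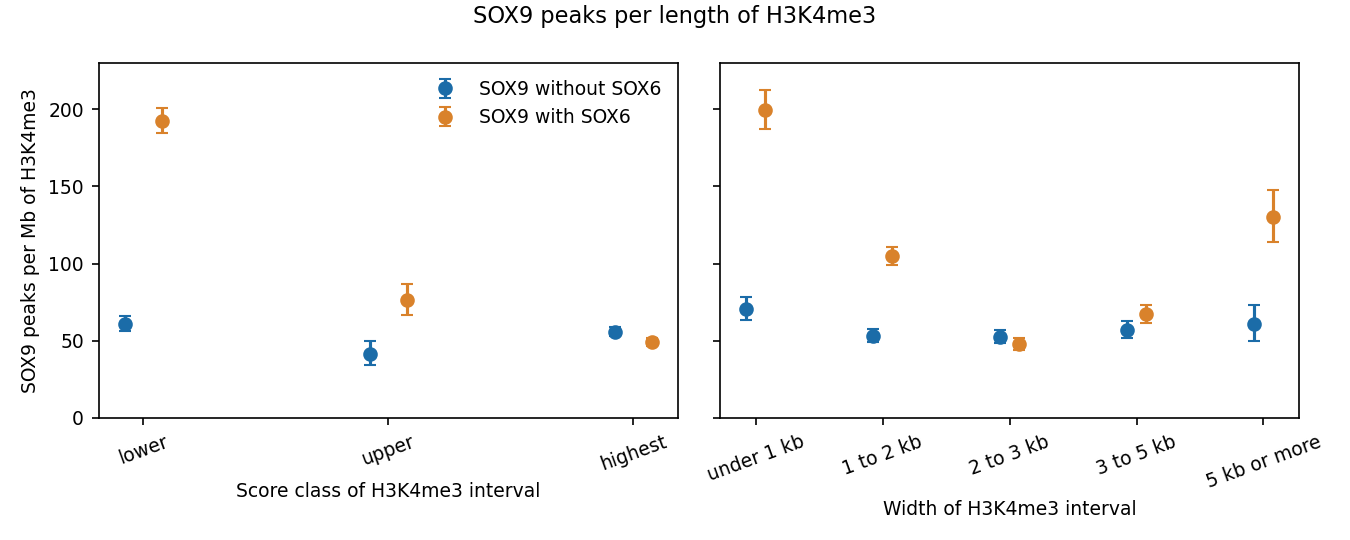
SOX9 peaks per Mb of H3K4me3 interval (y axis) by score class (left) and width (right) of the interval, with exact Poisson 95% intervals. Points for SOX9-only H3K4me3 sites stay between 41.5 and 70.7 per Mb, while those for shared sites run from 47.6 to 199.7 per Mb.

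H3K27ac was present at nearly all of the sites. It overlapped 2164 of 2231, or 97.0% (96.2% to 97.6%), against 80.2% of all SOX9 peaks, and the SOX9 centre was inside an H3K27ac interval at 96.1%. The share was 98.5% at shared sites, a difference of -1.55 points (-2.41 to -0.778), and 44.98% (43.5% to 46.5%) at the 4222 SOX9 peaks with neither SOX6 nor H3K4me3. Of all 23116 H3K4me3 intervals, with or without SOX9, 85.4% met H3K27ac.

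The H3K27ac intervals at SOX9-only H3K4me3 sites were narrower and lower in their list than those at shared sites. Their median width was 2381 bp, against 3261 bp. The highest class of the H3K27ac list, again at or above 3100, was met by 62.8% (60.8% to 64.8%) of SOX9-only H3K4me3 sites and by 76.8% of shared sites, a difference of -13.9 points (-16.4 to -11.5). The difference was -14.7 points (-17.6 to -11.8) in highest-class hosts, -39.5 points (-49.0 to -29.0) in upper-class hosts and -26.3 points (-30.4 to -22.1) in lower-class hosts. By host width it was -27.5 points (-33.1 to -21.5) under 1 kb, -27.4 at 1 to 2 kb and -17.8 at 2 to 3 kb. It was -2.63 points (-5.77 to 0.308) at 3 to 5 kb and -2.91 points (-9.01 to 1.21) at 5 kb or more, where both intervals include 0. Within quintiles of SOX9 score it was smaller, at -4.45 points (-11.3 to 2.61) in the lowest, -6.79, -5.55 and -6.74 points in the next 3 and 2.43 points (-6.63 to 7.65) in the highest. The intervals of the lowest and the highest quintile include 0.

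No H3K27ac interval was listed at 67 sites. Their hosts had a median width of 952 bp, and 50 of the 67, or 74.6% (63.1% to 83.5%), were in the lower H3K4me3 class. Their median SOX9 width was 362 bp and their median SOX9 score 63.82. H3K4me1 overlapped 39 of them, or 58.2% (46.3% to 69.3%), an interval that includes the 58.7% of all SOX9-only H3K4me3 sites. The sites without H3K27ac lay mainly in short hosts that were low in the H3K4me3 list.

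Hosts that held SOX9-only H3K4me3 sites and no shared site, 1945 in all, were compared with the 15022 H3K4me3 intervals that met no SOX9 and no SOX6 peak. Such a host could still meet a SOX6 peak elsewhere along its length. H3K27ac met 97.3% (96.5% to 98.0%) of the hosts and 79.3% of the intervals without SOX. In the highest class both were near the ceiling, at 99.9% and 99.1%. In the lower class the shares were 92.2% (89.9% to 94.1%) and 62.2% (61.1% to 63.3%). The 2737 H3K4me3 intervals that met SOX6 but no SOX9 peak also exceeded those without SOX. H3K27ac met 93.6% of these, with 99.7% in the highest class and 85.0% (82.7% to 87.0%) in the lower class. In the lower class the hosts had a median width of 990.5 bp, against 850 bp for the intervals without SOX. Whether this width takes part in the difference was not tested.

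H3K4me1 was less frequent at the sites than at shared sites and over all SOX9 peaks. It overlapped 1310 sites, or 58.7% (56.7% to 60.7%), against 74.8% of all SOX9 peaks and 81.9% (80.6% to 83.1%) of shared sites. The SOX9 centre was inside an H3K4me1 interval at 873 sites, or 39.1% (37.1% to 41.2%), against 65.2% of all SOX9 peaks and 63.0% of shared sites. The difference from shared sites was -23.2 points (-25.6 to -20.8) for overlap and -23.8 points (-26.4 to -21.3) for the centre. Counting only histone mark intervals above their list's median score, the overlap share at SOX9-only H3K4me3 sites was 36.8%. SOX9 peaks with neither SOX6 nor H3K4me3 had H3K4me1 at 54.1% of their centres, above the SOX9-only H3K4me3 sites, but met it by overlap at 55.9% (54.4% to 57.4%), which is not above them.

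By combination of marks, 57.0% of SOX9-only H3K4me3 sites met both H3K27ac and H3K4me1 and 40.03% (38.0% to 42.1%) met H3K27ac without H3K4me1. H3K4me1 without H3K27ac was found at 1.75% and neither mark at 1.26%. At shared sites H3K27ac without H3K4me1 was found at 17.7%, which is 22.4 points lower (19.98 to 24.7). The 2 rare combinations were also more frequent at SOX9-only H3K4me3 sites, H3K4me1 without H3K27ac by 0.706 points (0.1005 to 1.40) and neither mark by 0.844 points (0.375 to 1.42).

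The class of the host divided the sites by H3K4me1. In highest-class hosts the SOX9 centre was in H3K4me1 at 22.9% (20.8% to 25.2%) of 1422 sites, in upper-class hosts at 45.5% of 121 and in lower-class hosts at 71.5% (68.0% to 74.8%) of 688. The intervals of the 3 classes do not overlap, with 36.9% to 54.3% for the upper class, and the order ran opposite to the H3K4me3 score. Shared sites had the same order, at 36.9%, 61.3% and 78.2%. So did the midpoints of H3K4me3 intervals that met no SOX peak, at 12.8%, 26.0% and 48.0%. The order was thus not particular to SOX9 sites. Within a class the difference between SOX9-only H3K4me3 sites and shared sites was smaller than over all sites. It was -14.0 points (-17.4 to -10.5) in the highest, -15.8 points (-26.4 to -4.78) in the upper and -6.68 points (-10.6 to -2.98) in the lower class.

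Inside highest-class hosts, H3K4me1 at the SOX9 centre went with how far out the centre lay. Centres in the middle 50% of these hosts were in H3K4me1 at 152 of 1035 sites, or 14.7% (12.7% to 17.0%), and those in the outer 50% at 167 of 377, or 44.3% (39.4% to 49.3%). In lower-class hosts the shares were 70.1% and 71.9%, with overlapping intervals. On average 45.6% of the length of highest-class hosts was under H3K4me1, so the SOX9 centres inside them, at 22.6%, fell in H3K4me1 less often than an even placement over the hosts would give. In lower-class hosts the values were 72.3% of the length and 70.7% of the centres. Shared sites in highest-class hosts had the same pattern. Their centres were in H3K4me1 at 25.8% in the middle 50% and 55.2% in the outer 50% of the host. Of shared centres inside these hosts 36.1% were in H3K4me1, where 50.4% of the length was on average. At the midpoints of highest-class intervals H3K4me1 was infrequent also where there was no SOX peak. It lay on the midpoint of 11.1% (9.46% to 12.98%) of hosts with SOX9-only H3K4me3 sites and no shared site, 24.4% (17.9% to 32.4%) of the 131 hosts with both, 12.8% (11.9% to 13.6%) of intervals without SOX and 19.1% (16.7% to 21.7%) of those with shared sites alone.

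H3K4me1 lay beside the sites where it was not on them. It was absent from the centre but present within 2000 bp on both flanks at 31.4% (29.5% to 33.3%) of sites and on 1 flank at 22.5%, and it was not met within 2000 bp at 7.04%. In highest-class hosts both flanks without the centre made up 43.2% (40.6% to 45.8%) of sites, more than any other arrangement, and in lower-class hosts 9.45%. For shared sites these shares were 36.2% and 15.2%. The marks were also read outward from the SOX9 centres of SOX9-only H3K4me3 sites. In highest-class hosts the share of positions under H3K4me1 was 22.9% at the centre, 35.5% at 500 bp, 48.9% at 1000 bp and 47.7% at 1500 bp. H3K4me3 was lower further out, as in the plot of marks around SOX9 centres. In lower-class hosts H3K4me1 was 71.5% at the centre, 64.4% at 500 bp and 51.7% at 1000 bp, so it was highest on the SOX9 site.

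**Figure D3:**
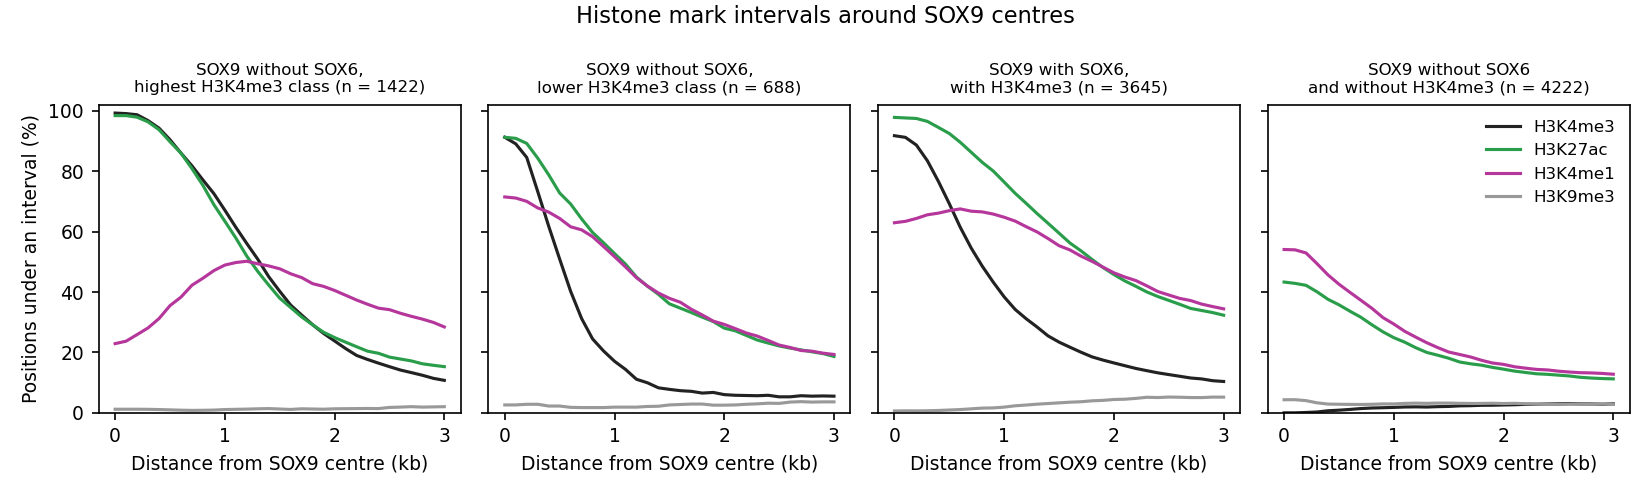
Share of positions under an interval of each histone mark (y axis, percent) against distance from the SOX9 centre in kb, with both sides pooled (x axis), for SOX9-only H3K4me3 sites in highest-class and lower-class hosts, for shared sites and for SOX9 peaks with neither SOX6 nor H3K4me3. From the centre to 1 kb, H3K4me1 goes from 22.9% up to 48.9% in highest-class hosts and from 71.5% down to 51.7% in lower-class hosts.

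The SOX9 score went with both the host class and H3K4me1, so the groups were also compared within quintiles of the SOX9 list. From the lowest to the highest quintile the difference in H3K4me1 at the centre was -18.9 points (-25.8 to -11.8), -24.1 (-29.7 to -18.3), -18.5 (-23.7 to -13.1), -16.4 (-22.7 to -10.0) and -3.68 points (-15.4 to 6.66). The first 4 intervals exclude 0 and the last does not, and that quintile held 73 SOX9-only H3K4me3 sites. H3K27ac overlap differed by -2.00 to 0.388 points, and all 5 intervals include 0. Among SOX9-only H3K4me3 sites, H3K4me1 at the centre was 38.3%, 34.7% and 36.5% in the lowest 3 quintiles, 49.4% in the fourth and 64.4% (52.9% to 74.4%) in the highest. Highest-class hosts held 67.3%, 68.4%, 65.5%, 52.6% and 26.0% (17.3% to 37.1%) of the sites in the same order. The high-scoring sites were thus less often in highest-class hosts and more often had H3K4me1 at the centre.

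**Figure D4:**
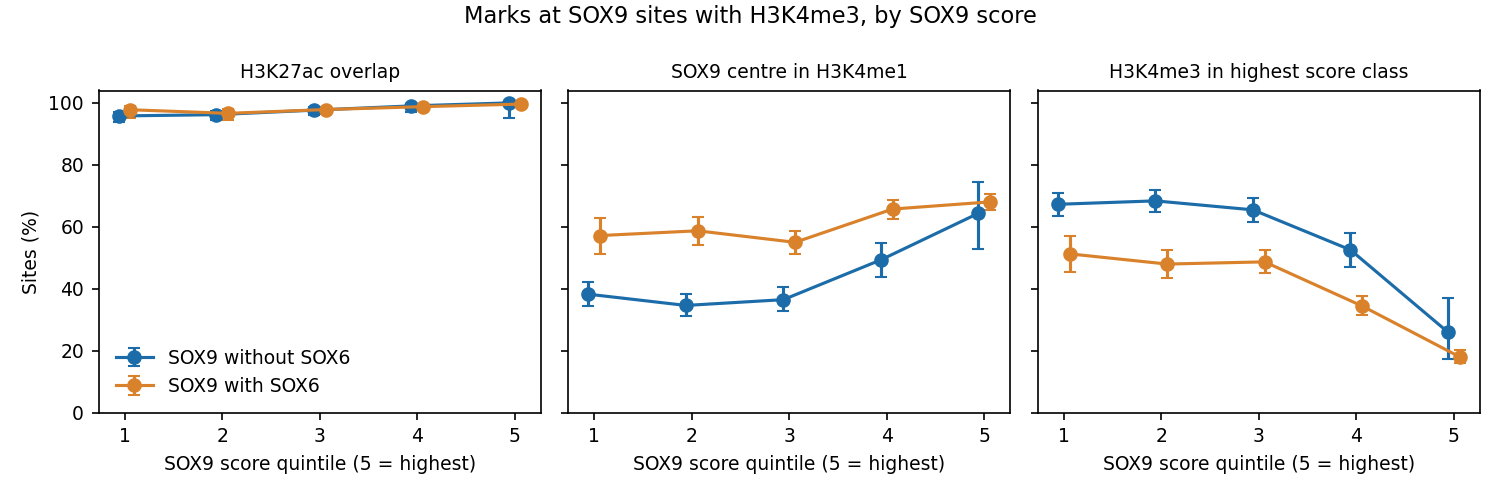
Share of sites in percent (y axis) that met H3K27ac (left), had their SOX9 centre in H3K4me1 (middle) or had a highest-class H3K4me3 host (right), by quintile of SOX9 score (x axis), with Wilson 95% intervals. For H3K27ac the interval of the difference between the groups includes 0 in all 5 quintiles, and H3K4me1 is lower at SOX9-only H3K4me3 sites in the lowest 4.

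Distance to the nearest SOX6 peak varied widely among the sites. The median gap was 17547 bp, with 405 sites (18.2%) under 1 kb, 488 at 1 to 10 kb, 757 at 10 to 50 kb and 581 at 50 kb or more. The median SOX9 score was 68.83, 70.1, 71.1 and 69.95 in these 4 classes, so the score was much the same in all. The marks differed between them. The share meeting a highest-class H3K27ac interval was 82.5% (78.5% to 85.9%) under 1 kb, 74.8% at 1 to 10 kb, 58.9% at 10 to 50 kb and 44.2% (40.2% to 48.3%) at 50 kb or more. H3K4me1 at the centre was 46.4% (41.6% to 51.3%), 45.9%, 37.1% and 31.0% (27.4% to 34.9%). The middle 50% of the host held 59.8% (54.9% to 64.4%), 61.3%, 76.1% and 74.4% (70.7% to 77.7%). Sites 10 kb or more from SOX6 were thus more often central in H3K4me3, and less often had highest-class H3K27ac or H3K4me1 at the centre, than sites nearer to it. Host class did not follow the distance, with 63.0%, 65.2%, 64.7% and 61.8% of sites in highest-class hosts.

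The converse set, 3827 SOX6 peaks with H3K4me3 and no SOX9 peak, had hosts of the same median width, 2145 bp. A highest-class host was found for 59.5% (57.9% to 61.0%), and SOX9-only H3K4me3 sites exceeded this by 4.27 points (1.73 to 6.78). They met highest-class H3K27ac more often by 10.8 points (8.27 to 13.4). SOX9-only H3K4me3 sites exceeded it by 6.40 points (3.94 to 8.83) in the share in the middle 50% of the host and by 3.61 points (2.52 to 4.65) in H3K27ac. In H3K4me1 at the centre the difference was -8.69 points (-11.2 to -6.11), 39.1% against 47.8%. For H3K4me1 overlap the difference was -2.40 points (-4.96 to 0.154), an interval that includes 0. The median position was 0.34 at SOX9-only H3K4me3 sites and 0.40 in the converse set, so the former lay nearer the midpoint. Containment in the host did not clearly differ. The difference was -0.110 points (-1.08 to 0.785) for the peak centre inside the host. For the whole peak inside it was -1.73 points (-3.68 to 0.166), and both intervals include 0. SOX6 and SOX9 peaks come from separate lists with separate thresholds, and the part of this in the differences was not tested. The median peak width was 434 bp in the converse set, against 546 bp at SOX9-only H3K4me3 sites. The part of peak width in the difference in position was not tested either.

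Most of the 10 highest-scoring sites had a lower-class host and H3K4me1. All 10 met H3K27ac of the highest class, 9 met H3K4me1 and 8 had H3K4me1 at the SOX9 centre. Their host was in the lower H3K4me3 class for 7 and in the highest class for 3, and 4 had a SOX6 peak within 5 kb. The highest score, 633.47, belonged to chr5:152777234-152777969, which is 736 bp wide and lies at the edge of a host of 6496 bp at a position of 0.98. The second, at 624.83, was chr11:55576347-55579538, a peak of 3192 bp that fills nearly all of a host of 3396 bp, and it also met H3K9me3. The third, chr5:170608858-170609621 with a score of 555.71, lay near the midpoint of an 1841 bp host at 0.07, and a SOX6 peak lay 10 bp away. Centres beyond the edge of the host were found for chr8:131720417-131721255, at 1.19, and for chr10:13860067-13861255, at 1.06. The single site among the 10 without H3K4me1 was chr17:12583271-12584061, with a score of 505.61 in a highest-class host of 3306 bp. All coordinates are on rn5 and count from 1.

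The remaining 4 were chr12:39812251-39812792, chr4:205177551-205178553, chr10:90532326-90533242 and chr8:104302385-104303295, with scores of 537.9, 534.24, 509.24 and 479.18. Each had H3K4me1 over 99.7% to 100% of its length and a lower-class host of 1050 bp to 1575 bp.

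Named by their width among the hosts of the sites, the 5 widest each held 1 or 2. The widest, chr4:232960962-232975254, spans 14293 bp, is wholly under H3K27ac and held 2 SOX9-only H3K4me3 sites with scores of 52.07 and 86.09. The next 4 were 13148 bp, 12864 bp, 11426 bp and 10605 bp wide and held 2, 1, 1 and 1 sites, with 2, 3, 3 and 1 shared sites beside them. H3K4me1 covered from 15.4% to 76.1% of these 5 hosts. The only host with 4 sites was chr1:141731185-141739699, which spans 8515 bp, had no shared site and was 82.6% under H3K4me1. Its 4 sites had scores from 51.68 to 92.16 and positions of 0.02 to 0.37, all in the middle 50%. Among the 4 hosts with 3 sites, chr9:61368675-61374875 was under H3K27ac over only 55.6% of its 6201 bp, while the other 3 were wholly under it.

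At the threshold of the rule, the site with the fewest bp under H3K4me3, 1 bp, was chr8:62718530-62719161, with a score of 264.08. It had H3K27ac and H3K4me1 over its centre. The next 4, with 12, 14, 16 and 28 bp under H3K4me3, scored 54.03, 64.15, 52.38 and 102.18, and chr11:34970648-34970953, the one with 12 bp, met none of the other 3 marks. On the other side, the SOX9 peak without SOX6 that came nearest to H3K4me3 without touching it was chr4:243479354-243479550, 6 bp away, with a score of 107.18. All 5 of the nearest outside met H3K27ac, and 4 of them H3K4me1.

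H3K9me3 was rare at the sites. It overlapped 49 of 2231, or 2.20% (1.67% to 2.89%), against 3.31% of all SOX9 peaks and 1.87% (1.47% to 2.36%) of shared sites. The difference from shared sites was 0.331 points (-0.394 to 1.13), and the interval includes 0. At the SOX9 centre itself H3K9me3 was found at 1.84% of SOX9-only H3K4me3 sites and 0.604% of shared sites. Against SOX6 peaks with H3K4me3 and no SOX9, of which 0.967% met H3K9me3, the difference in overlap was 1.23 points (0.586 to 1.97). SOX9 peaks with neither SOX6 nor H3K4me3 met it at 5.12%.

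The frequency of the sites varied by chromosome together with the input. The share of H3K4me3 intervals with a site was 3.80% (2.54% to 5.63%) on chromosome X, 5.41% on 17, 6.05% on 20 and 6.50% on 15, and these 4 also had the fewest input reads per Mb, at 0.595 to 0.762 times the median chromosome. The highest shares were 12.8% (11.2% to 14.5%) on chromosome 4, 12.2% on 13, 11.5% on 7 and 11.3% on 16, whose input values were 1.21, 1.21, 1.91 and 2.05. Chromosome 9, with an input value of 2.03, had 9.81%, so the order was not complete. The part of the input in this share was not tested. Without the 4 chromosomes of highest input, 16, 9, 7 and 11, H3K4me1 overlapped 54.4% (52.1% to 56.8%) of the sites. Of all SOX9 peaks with H3K4me3, those without SOX6 made up from 28.4% (24.1% to 33.0%) on chromosome 9 to 47.6% (37.1% to 58.2%) on chromosome 20.

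**Figure D5:**
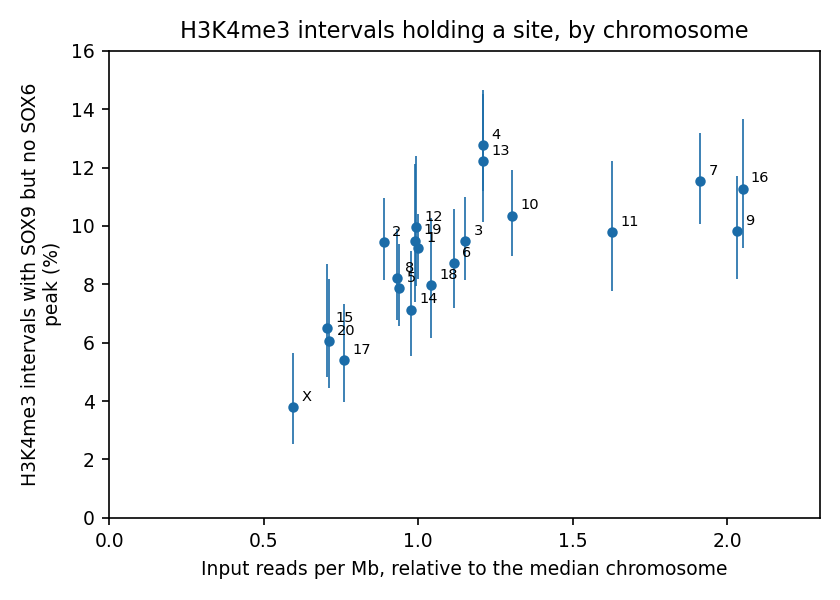
Share of H3K4me3 intervals that hold a SOX9-only H3K4me3 site (y axis, percent, Wilson 95% intervals) against input reads per Mb relative to the median chromosome, averaged over the 4 inputs (x axis), for the 21 chromosomes. Chromosomes X, 17, 20 and 15 lie lowest on both axes, and 4 and 13 have the highest shares.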

How the data were processed

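The immunoprecipitations were deposited as 1 peak list per library, whose peak names carry the name of MACS, and the inputs as read counts per chromosome. The submitters' processing notes name CASAVA 1.8 and rn5. An aligner, the caller's version and settings, and the control of each list were not given in the sources used here. The score of each peak is the authors' deposited value on a scale that is not stated, and was used within its own list. Input counts are raw, per the file headers. Read depth of the immunoprecipitated libraries was not used here.

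Intervals were read as BED, counting from 0, and are printed counting from 1. Overlap means 1 bp or more in common. A site's host is the H3K4me3 interval with most bp in common, with ties ordered by coordinate. Python 3.11.15 with pandas 2.3.3, numpy 2.4.6, scipy 1.17.1 and statsmodels 0.14.6 was used, and figures were drawn with matplotlib 3.10.9. The overlap functions were tested on simulated lists with known overlaps. No test across samples was possible with 1 library per antibody, so shares, differences and rates carry 95% intervals of counting error.

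The members, classes and comparisons were chosen with earlier results of these data known. The regions named are the 10 sites with the highest score, the 5 widest hosts, the 5 hosts with most sites, and the 5 SOX9 peaks without SOX6 on each side of the H3K4me3 threshold. There were 6 processing alternatives. No gene was named and no sequence printed, since a genome and annotation of rn5 were not used here.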

Additional observations from a re-analysis of the deposited data

How the results depend on the processing

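Each of 11 results was recomputed under 6 alternatives, and 2 of them, the density ratios, were chosen after seeing the data. Of 64 values, 38 stayed within the interval of the main value (a count within 1.5 times) and 26 moved outside it, and 0 changed sign. The 38 include the density ratio of shared sites with no SOX6 peak within 1000 bp, which could not move. That setting changes only the SOX9-only H3K4me3 sites. The ratios could not be computed for marks above the list median, which leaves no lower class.

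With SOX9 peaks above the list's median score, 653 sites were left. H3K27ac overlap was then 98.8%, H3K4me1 overlap 67.2%, centres inside the host 95.6%, the middle 50% of the host 66.8%, highest-class hosts 54.4% and the median host width 1965 bp. The difference from shared sites was -0.376 points for H3K27ac, with an interval of -1.58 to 0.367 that includes 0, and -18.6 points for H3K4me1. The density ratios of the highest to the lower class were 0.577 for SOX9-only H3K4me3 sites and 0.189 for shared sites.

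With histone marks above their list's median score, H3K4me1 overlap was 36.8%, centres inside the host 99.0%, the middle 50% 72.8%, highest-class hosts 92.1%, the median host width 2589 bp and the H3K4me1 difference -20.7 points. Removing the lower class raises the share of highest-class hosts by construction. With the SOX9 centre required inside H3K4me3, centres inside were 100% by construction, the middle 50% was 71.8% and the shared ratio 0.286. With no SOX6 peak within 1000 bp the middle 50% was 71.6% and the host width 2068 bp. With 1 SOX9 peak per host they were 71.8% and 2053 bp, and the shared ratio was 0.227. Without the 4 chromosomes of highest input, H3K4me1 overlap was 54.4%. Apart from the effects of construction, the cause of these shifts was not tested.

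No paired analysis was possible because each antibody has 1 library. The intervals hold counting error only, and the depth of the immunoprecipitated libraries was not used here, so a mark or SOX6 peak below the list's lowest score cannot be told apart from an absent one.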

Other observations

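H3K4me3 intervals that held a SOX9-only H3K4me3 site and no shared site lay wholly under H3K27ac in 35.5% of cases (33.4% to 37.7%, Wilson 95% interval, n = 1945). Intervals with shared sites alone did so in 73.8% (72.2% to 75.3%, n = 3145) and intervals without SOX in 19.7% (19.1% to 20.4%, n = 15022). The order was the same within each class of H3K4me3 score. In the highest class the shares were 18.4%, 39.1% and 9.88%, in the upper class 39.2%, 75.6% and 16.04%, and in the lower class 68.8%, 90.1% and 27.9%. By length, 88.5% of the first set was under H3K27ac, 95.1% of the second and 74.4% of the third. The wholly covered intervals among those with SOX9-only H3K4me3 sites were thus fewer than with shared sites and more than without SOX in all 3 classes. Intervals that met SOX6 but no SOX9 peak were wholly covered in 33.2% of cases (31.5% to 35.0%, n = 2737). By class, from highest to lower, their shares were 17.5%, 38.1% and 54.7%. The excess over intervals without SOX was therefore not particular to SOX9-only H3K4me3 sites, although the lower-class share was higher with them.

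SOX9-only H3K4me3 sites also had other SOX9 peaks further away than shared sites had. The median gap to the nearest other SOX9 peak was 24688 bp, against 12931 bp at shared sites and 37258 bp at SOX9 peaks with neither SOX6 nor H3K4me3. Where H3K4me1 met a SOX9-only H3K4me3 site, its interval had a median width of 1344 bp, against 2018 bp at shared sites. The median score of these H3K4me1 intervals was 358.9 and 752.9 in the same order, on the authors' scale within the H3K4me1 list. Both H3K4me1 values come only from sites that met the mark, 1310 and 2986.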
